A study of Mus musculus with 9 samples.

Results

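Probe sets that match the transcripts of more than 1 gene were followed through mouse oocytes that lacked either of the proteins needed to make microRNAs. A probe set is a group of short probes on the array whose combined brightness is read as 1 value. A member was a probe set whose gene field held more than 1 symbol and whose signal reached 4 on the log2 scale in at least 3 of the 9 arrays. Of 1621 probe sets with several symbols, 1255 were members and 366 lay below that floor. All 35557 probe sets of the array include 27257 past the floor, of which 18901 name 1 gene and 7101 name none. The oocytes were at metaphase II, the stage of ovulated eggs, from C57BL/6 mice of 3 genotypes: wild-type, Dgcr8 knockout and Dicer knockout, with 3 biological replicates of each. All females had received 7.5 IU of PMSG and then 7.5 IU of hCG, hormones that ripen and release oocytes. Oviducts were taken 14 to 16 h after hCG (16 h by the sample labels), and cumulus cells were washed away after hyaluronidase at 0.3 mg/ml. The sources used here do not state by which alleles the genes were removed or how many females and oocytes went into an array.

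Dgcr8 acts with Drosha in the nucleus to cut long primary transcripts into microRNA precursors. Dicer makes the next cut, from precursor to mature microRNA, and it also cuts long double-stranded RNA into small interfering RNAs. Mouse oocytes carry such endogenous small interfering RNAs, and transcripts of a gene paired with those of its pseudogene are a known source of them. A probe set that names a gene together with its copies can read them jointly, and its signal cannot be split between the genes it names. How much each copy adds is not known here, because matches were taken from the gene field alone, without probe sequences.

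The targeted genes followed their labels. Dgcr8 read 8.85, 9.05 and 8.97 in the wild-type arrays and 5.47, 5.98 and 5.70 in the Dgcr8 knockout arrays, a difference of -3.24 in log2 signal (limma, adjusted p = 0.000126). Dicer1 read 11.66, 11.67 and 11.67 in wild-type and 10.82, 10.77 and 10.57 in Dicer knockout, a difference of -0.95 (limma, adjusted p = 3.8e-05). Signal therefore remained at the Dicer1 probe set, and the sources used here do not tell whether its probes lie in the removed stretch. All 12 oocyte markers passed the floor, with array medians of 11.79 to 12.11. In Dicer knockout minus wild-type 1 marker each of the oocyte (Zp2, 0.40 ± 0.10), immune (Cd68, 0.96 ± 0.20) and oviduct (Myh11, -0.46 ± 0.08) lists was called (limma, adjusted p = 0.0368, 0.0204 and 0.0107), and none in Dgcr8 knockout. The medians were 4.91 to 5.07 for cumulus and granulosa markers, 4.36 to 4.84 for immune and blood markers and 5.33 to 5.63 for oviduct markers. In a sample of whole oocytes, fewer cells of a type and less RNA per cell cannot be told apart.

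The members fell into 5 kinds by the names, types and positions of their genes in the RefSeq annotation of GRCm38.p6, with 16 unplaced. Each member has the first kind that holds, in the order small RNA gene, pseudogene, overlap, tandem and distant. Copies or neighbours within 1 Mb of each other on 1 chromosome made 542 members, here called tandem, a class that also takes in unlike neighbours such as Parp4 and Mphosph8. Members that name any pseudogene made 437. These are not all pairs of a gene and its pseudogene, and they take in clusters such as Zfp990 and its neighbours. Genes on different chromosomes or over 1 Mb apart made 162, here called distant, again with some unlike pairs. Overlapping genes made 72, and members that name a small RNA gene made 26. At a distance limit of 100 kb, 425 members were tandem and 279 distant.

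Upstream sequences show how alike the stretches before the copies named by 1 probe set can be. They do not show whether the transcripts share probe targets. The lines give the 150 bases before the RefSeq start (GRCm38.p6), 5′ to 3′ on the gene's strand, for the copies named by 4 members with large or repeated changes. Capitals mark bases that differ from, or have no partner in, the most alike copy of the set, from an alignment of 250 bases. Identity is the share of the 250 bases paired with the same base, so an offset between annotated starts also lowers it. Mterf1a lies at chr5:3893934-3894083 (minus strand) and Mterf1b at chr5:4192217-4192366 (plus strand), and their 250 bases were 96.4% identical.
Mterf1a: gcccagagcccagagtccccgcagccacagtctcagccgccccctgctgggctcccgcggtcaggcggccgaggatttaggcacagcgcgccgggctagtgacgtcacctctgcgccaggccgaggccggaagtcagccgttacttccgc
Mterf1b: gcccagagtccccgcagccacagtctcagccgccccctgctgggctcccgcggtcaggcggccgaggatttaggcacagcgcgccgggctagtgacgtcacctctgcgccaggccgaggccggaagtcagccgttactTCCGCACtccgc
The Tdpoz windows are Tdpoz1 at chr3:93676284-93676433, Tdpoz9 at chr3:94054886-94055035, Tdpoz5 at chr3:93961315-93961464 and Tdpoz7 at chr3:94072645-94072794, all on the minus strand. Tdpoz5 and Tdpoz7 were 99.6% identical and Tdpoz1 and Tdpoz9 88.8%, while identity across the pairs was 57.2 to 59.2%. The 27 capitals of Tdpoz1 form 1 stretch at its end, without a partner in Tdpoz9.
Tdpoz5: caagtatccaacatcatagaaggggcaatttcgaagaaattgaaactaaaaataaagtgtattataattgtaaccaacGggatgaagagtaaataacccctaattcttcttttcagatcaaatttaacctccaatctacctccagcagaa
Tdpoz7: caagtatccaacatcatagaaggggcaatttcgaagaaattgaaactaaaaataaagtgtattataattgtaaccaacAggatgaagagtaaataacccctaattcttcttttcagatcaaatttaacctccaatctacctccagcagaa
Tdpoz1: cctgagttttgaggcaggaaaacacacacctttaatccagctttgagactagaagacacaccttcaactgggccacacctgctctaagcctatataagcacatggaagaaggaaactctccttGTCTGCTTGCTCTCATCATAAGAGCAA
Tdpoz9: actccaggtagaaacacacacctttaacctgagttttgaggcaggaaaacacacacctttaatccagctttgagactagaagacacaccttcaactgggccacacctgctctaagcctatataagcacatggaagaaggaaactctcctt
The olfactory receptor windows are Olfr1196 at chr2:88701328-88701477, Olfr1197 at chr2:88729598-88729747 and Olfr1200 at chr2:88768314-88768463, all on the minus strand. Olfr1196 and Olfr1197 were 87.6% identical, and Olfr1200 was 64.4% and 64.8% identical to them.
Olfr1196: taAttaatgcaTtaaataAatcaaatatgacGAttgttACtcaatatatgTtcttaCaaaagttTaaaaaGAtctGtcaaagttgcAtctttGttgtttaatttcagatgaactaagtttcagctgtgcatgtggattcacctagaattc
Olfr1197: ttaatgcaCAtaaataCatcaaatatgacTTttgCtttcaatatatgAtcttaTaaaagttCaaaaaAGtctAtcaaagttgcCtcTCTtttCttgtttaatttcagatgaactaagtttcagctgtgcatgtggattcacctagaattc
Olfr1200: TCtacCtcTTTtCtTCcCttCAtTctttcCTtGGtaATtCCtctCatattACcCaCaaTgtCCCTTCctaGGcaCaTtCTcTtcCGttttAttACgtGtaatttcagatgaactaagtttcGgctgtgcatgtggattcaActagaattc
Uchl3 at chr14:101653817-101653966 and Uchl4 at chr9:64235051-64235200, both on the plus strand, were 56.0% identical, close to the median of 57.6% over pairs in distant members.
Uchl3: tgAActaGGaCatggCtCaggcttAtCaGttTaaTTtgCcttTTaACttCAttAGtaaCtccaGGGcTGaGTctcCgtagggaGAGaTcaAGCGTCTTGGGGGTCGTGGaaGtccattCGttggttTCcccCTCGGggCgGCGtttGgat
Uchl4: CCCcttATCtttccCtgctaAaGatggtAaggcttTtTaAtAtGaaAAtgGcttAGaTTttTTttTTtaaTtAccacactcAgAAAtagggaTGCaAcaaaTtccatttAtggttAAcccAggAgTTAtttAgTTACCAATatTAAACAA
Of the 1602 genes named by members, 1147 had such a window in the RefSeq table once 1 chromosome was left out of this step. The pairs below leave out that chromosome too. Over 2527 pairs of genes that share a member, the median identity was 66.8%. It was 73.2% over 1689 tandem pairs, of which 682 (40.4%) were at least 80% identical. It was 66.4% over 942 pairs in pseudogene members, 59.2% over 67 in overlapping members and 57.6% over 44 in distant members. A pair can stand in more than 1 kind. The lowest identity of any pair was 44.0%. No unrelated genes were aligned, so how alike unrelated stretches come out under this alignment is not known here.

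Members repeat each other. They held 626 different sets of symbols, and 172 of them (13.7%) had the same 9 values as another probe set, against 110 single-gene probe sets (0.582%). Joining members that share a gene gave 471 gene groups, of which 239 hold 1 member and 19 hold 10 or more, with 351 members between them. The largest group, around Rpl29, a protein of the large ribosomal subunit, holds 35. Members of a group are not independent, so counts of groups, read at the probe set with the highest mean signal, are given beside counts of members. The 9 values lay at or above the floor in 1201 members, and none of the 1255 passed it through 1 genotype alone.

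Members were called after loss of Dicer, and none was called after loss of Dgcr8. A member was called at an adjusted p under 0.05 (limma, adjusted over all 27257 probe sets). In Dicer knockout minus wild-type, 226 of 1255 members were called, 178 higher and 48 lower, or 18% against a background of 9.09% of all probe sets and 9.66% of single-gene ones. The excess was on the higher side: 14.2% of members rose against a background of 4.89%, and 3.82% fell against 4.19%. The lower count of 48 was 29 without wild-type replicate 1, 28 without wild-type replicate 3 and 31 without Dicer knockout replicate 1. At least a 2-fold difference and an adjusted p under 0.05 were reached by 60 members (4.78%, background 2.4%), and an adjusted p under 0.01 by 126 (10%, background 4.29%). The groups did not overlap in 360 members (28.7%, background 24%). By gene group the share called in either direction was closer to the background. Of 471 groups 50 were called, 39 higher and 11 lower (10.6%), against 9.43% of 17325 genes read at the highest of their own probe sets. By direction, 8.28% of groups were higher against 4.16% of genes, and 2.34% were lower against 5.27%. The called members lay in 62 gene groups, and 5 of these groups held 95 of them. Without replicate 1 of the Dicer knockout, 32 groups were called, 26 higher and 6 lower, and without wild-type replicate 3 the lower groups were 7.

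The shares of called members by kind are read against the background of 9.09% (4.89% higher, 4.19% lower). Of the 437 members with a pseudogene partner, 109 rose and 5 fell (26.1%), in 14 and 2 of 114 gene groups. The rises were 88 to 116 without any 1 array, and the 5 falls were 0 without wild-type replicate 2, 1 without wild-type replicate 1 or 3, 2 without Dicer knockout replicate 1 and 11 without Dicer knockout replicate 3. Of the 542 tandem members, 41 rose and 41 fell (15.1%), in 19 and 11 of 226 groups. Leaving out single arrays moved the tandem counts by over 1.5 times: 21 rose without wild-type replicate 1 or Dicer knockout replicate 1 and 23 without wild-type replicate 3, and 27 and 26 fell without wild-type replicates 1 and 3. Of the 162 distant members 18 rose and 1 fell (11.7%), in 11 and 1 of 64 groups. The share called in either direction was near the background, but all calls except 1 were rises. Without Dicer knockout replicate 3 the number that rose was 50. It was 11 without wild-type replicate 3 or Dicer knockout replicate 1. Of the 72 overlapping members 2 rose and 1 fell (4.17%). No test compared 1 kind with another.

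Loss of Dgcr8 was followed by no called member. The count was 0 of 1255 (limma), against a background of 0.0147% (4 of 27257 probe sets). At an unadjusted p under 0.05 there were 30 members (2.39%, background 2.6%), and the 2 groups of arrays did not overlap in 66 (5.26%, background 6.45%). Among the members, log2 differences ran from -0.90 at Gm32211/Rpl39 to 0.68 at a Speer probe set. The lowest unadjusted p belonged to DXBay18/Gm14685/Gm5936 on 3 X-linked copies, with 5.53, 5.66 and 5.70 in wild-type, 6.06, 6.03 and 5.94 in Dgcr8 knockout and 5.34, 5.05 and 5.59 in Dicer knockout. The Dgcr8 knockout arrays were highest and did not overlap the rest, and the difference from wild-type was 0.38 ± 0.13 (SE; limma, adjusted p = 1). The median half-width of a 95% interval in this comparison, before any adjustment for the number of probe sets, was 0.25.

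The change with the greatest size lay at a distant pair. Uchl4/Uchl3 names Uchl3, a ubiquitin C-terminal hydrolase, and Uchl4, a copy without introns on another chromosome. Its log2 signal was 7.07, 6.99 and 6.52 in wild-type, 6.98, 6.86 and 6.89 in Dgcr8 knockout and 11.20, 10.95 and 11.17 in Dicer knockout. The 3 Dicer knockout arrays stood far above the other 6, which overlapped. Dicer knockout exceeded wild-type by 4.25 ± 0.14 (SE, log2), a 19.0-fold difference (limma, adjusted p = 2.36e-06), and Dgcr8 knockout by 4.2 ± 0.14 (adjusted p = 3.26e-06). The upstream windows of these 2 genes are the unlike pair printed above.

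Olfactory receptors gave the next ones. These are odour receptors of the nose, in large clusters of copies. Olfr1197/Olfr1196/Olfr1200 read 5.66, 6.06 and 5.82 in wild-type, 5.88, 6.36 and 5.71 in Dgcr8 knockout and 9.8, 9.56 and 9.9 in Dicer knockout. The difference from wild-type was 3.91 ± 0.18, or 15-fold (limma, adjusted p = 8.53e-06). Its partner probe set Olfr1197/Olfr1196 moved with it, by 3.70 ± 0.17 (adjusted p = 8.28e-06), and no array of Dicer knockout overlapped the others at either. They were the 2 members that rose of 53 olfactory receptor members (3.77%, background 4.89% higher). None of the 53 fell, and their median difference was -0.01, so the change lay at 1 gene group of 39.

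Counted by member, those with a pseudogene partner supplied most of the rises, 109 of 178. By gene group they rose in 14 of 114 groups, against 19 of 226 for tandem members. A group counts here if any of its members of that kind rose. Gm8624/Rps23, for a protein of the small ribosomal subunit, read 9.56, 9.56 and 9.30 in wild-type, 9.29, 9.30 and 9.26 in Dgcr8 knockout and 11.17, 11.10 and 10.99 in Dicer knockout. It rose by 1.61 ± 0.08, or 3.06-fold (limma, adjusted p = 9.24e-06), and all 6 members of its group rose, by 1.59 to 1.67. Ndufs5/Ndufs5-ps, for a subunit of respiratory complex I, read 7.70, 7.08 and 7.01, then 7.14, 6.90 and 7.19, then 9.37, 9.39 and 8.4 in the same order of genotypes. Dicer knockout replicate 3 was the lowest of its group there but lay above all wild-type and Dgcr8 knockout arrays, and the difference from wild-type was 1.79 ± 0.28 (adjusted p = 0.00477).

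Gapdh, the glycolytic enzyme used widely as a reference gene, is named with predicted genes and 3000002C10Rik in 25 members with 20 different profiles. The one with the highest signal read 10.95, 11.08 and 11.11 in wild-type, 11.12, 11.11 and 11.04 in Dgcr8 knockout and 12.19, 12.08 and 12.14 in Dicer knockout. It rose by 1.09 ± 0.05 (2.13-fold; limma, adjusted p = 8.86e-06). All 25 rose, by 0.81 to 1.23 (background 4.89% higher), also without any 1 array. Rps2, another protein of the small ribosomal subunit, repeated this at a smaller size: 17 of 17 members rose by 0.64 to 0.82, at 11.17, 11.32 and 10.99 in wild-type, 11.08, 11.18 and 11.19 in Dgcr8 knockout and 11.87, 11.90 and 11.86 in Dicer knockout for the first of them. Its difference was 0.71 ± 0.08 (adjusted p = 0.000535), and the 17 calls held without any 1 array. The members of each of these groups share genes and are not independent measurements.

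In 1 family of chromatin proteins many members rose, by less than those above. The family of HMG proteins, nucleophosmin and SET, chaperones and benders of DNA and histones, had 42 members in 4 gene groups. Of these members 31 rose and none fell (73.8%, background 4.89% higher and 4.19% lower), in 2 of the 4 groups. Most belong to Hmgb1, a DNA-bending protein, where 29 of 34 members rose and the median difference was 0.47. Hmgb1-rs17/Gm5176/Hmgb1, the one with the highest signal, read 10.61, 10.78 and 10.70 in wild-type, 10.63, 10.65 and 10.75 in Dgcr8 knockout and 11.12, 11.06 and 10.99 in Dicer knockout, with no overlap and a difference of 0.36 ± 0.06 (limma, adjusted p = 0.00712). The family median over members lay 0.42, 0.46 and 0.46 above wild-type in the 3 Dicer knockout arrays. The 31 family calls became 20 without wild-type replicate 1 or 3 (18 of 34 for Hmgb1). BC085271/Set, for a histone chaperone and phosphatase inhibitor, read 8.54, 8.53 and 8.37, then 8.34, 8.20 and 8.60, then 9.52, 9.31 and 9.32. It rose by 0.90 ± 0.12 (adjusted p = 0.00158).

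Of the genes of the cytoskeleton, 8 of 12 tubulin and actin members rose and none fell (66.7%), in 2 of 5 gene groups. The background was 4.89% higher and 4.19% lower, and the 8 calls held without any 1 array. The family median over members lay 0.79, 0.82 and 0.74 above wild-type in the Dicer knockout arrays and between -0.06 and 0.06 in the Dgcr8 knockout arrays. Tuba1c/Tuba1b/Tuba1a, the alpha-tubulins of microtubules, read 10.90, 10.95 and 10.72 in wild-type, 10.60, 10.84 and 10.89 in Dgcr8 knockout and 11.87, 11.83 and 11.78 in Dicer knockout. The difference was 0.97 ± 0.09 (limma, adjusted p = 0.000192), and it was 0.97 to 1.31 over the 4 members. Actg1/Actb, the cytoplasmic actins, read 10.42, 10.43 and 10.59, then 10.47, 10.41 and 10.53, then 11.20, 11.20 and 11.23. The Dicer knockout arrays did not overlap the others, by 0.73 ± 0.06 (adjusted p = 9.52e-05), and 4 of 4 members of the group rose. Kifc1/Kifc5b, minus-end kinesins of the spindle, rose as well: 8.44, 8.47 and 8.49 in wild-type, 8.39, 8.36 and 8.34 in Dgcr8 knockout and 9.45, 9.55 and 9.47 in Dicer knockout, a difference of 1.02 ± 0.06 (adjusted p = 2.13e-05).

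Further rises came from single groups. Gm6098/Ube2l3, for a ubiquitin-conjugating enzyme, read 9.62, 9.51 and 9.37 in wild-type, 9.34, 9.57 and 9.62 in Dgcr8 knockout and 11.07, 10.97 and 11.33 in Dicer knockout (1.62 ± 0.11; limma, adjusted p = 4.25e-05). Sp110 and Sp140, nuclear body proteins, are named by 1 probe set together with C130026I21Rik, A530032D15Rik, Gm15753 and several LOC entries. This probe set rose by 1.98 ± 0.09 (adjusted p = 8.28e-06) from 9.64, 9.60 and 9.68 to 11.78, 11.47 and 11.60. Dgcr8 knockout stood at 9.44, 9.51 and 9.68. The other members of that gene group changed by less: the 8 ran from 0.29 to 1.98 with a median of 0.82, and 7 were called. The Eif1a group, for a translation initiation factor, had 4 of 4 members called. The highest read 6.24, 5.57 and 5.62, then 6.26, 5.79 and 6.02, then 6.93, 6.95 and 7.31, a difference of 1.25 ± 0.20 (adjusted p = 0.0056). Gstp1/Gstp2, glutathione transferases, rose by 1.00 ± 0.10 (adjusted p = 0.000474), Tmem254b/Tmem254c/Tmem254a by 0.71 ± 0.13 (adjusted p = 0.0105, 3 of 3 members) and Cmtm1/Cmtm2a by 1.30 ± 0.20 (adjusted p = 0.00389).

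Overlapping genes held 1 large change, singled out after its values were seen. Gm44504/Ubl4a, at the gene of a ubiquitin-like protein, read 6.80, 6.60 and 6.61 in wild-type, 6.42, 6.47 and 6.45 in Dgcr8 knockout and 8.25, 8.22 and 8.23 in Dicer knockout. The Dicer knockout arrays were far apart from the rest, by 1.56 ± 0.08 or 2.95-fold (limma, adjusted p = 9.41e-06). The other 2 calls of this kind were near the threshold. Gm20498/Synj2bp rose by 0.62 (adjusted p = 0.0474, and 0.0641 to 0.16 without any 1 of 7 arrays), and Utp14b/Acsl3 fell by 0.37 (adjusted p = 0.0474, and 0.0537 to 0.153 without any 1 of 8 arrays).

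Falls came from fewer gene groups, 15 against 48 with a rise, and 41 of the 48 members that fell were tandem. Mterf1a/Mterf1b, mitochondrial transcription termination factors, read 8.66, 8.66 and 8.52 in wild-type, 8.75, 8.71 and 8.72 in Dgcr8 knockout and 7.70, 7.24 and 7.86 in Dicer knockout. All 3 Dicer knockout arrays lay below the other 6, and the difference was -1.02 ± 0.14 (limma, adjusted p = 0.00279). A second probe set of the pair gave -1.08 (adjusted p = 0.0023). Nat8f6/Nat8f7/Nat8f3, acetyltransferases of the endoplasmic reticulum, read 6.29, 6.07 and 6.38, then 6.10, 6.52 and 6.10, then 5.03, 5.62 and 5.32. It fell by 0.92 ± 0.17 (adjusted p = 0.0107), and 3 of 3 members were called, 2 of 3 without wild-type replicate 1 or 3.

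Clusters of oocyte genes were the family with most falls, 20 lower and 1 higher among 71 members, in 2 and 1 of 15 gene groups. The background was 4.19% lower and 4.89% higher. The lower calls were 17 to 20 without any 1 array. The 16 from PRAME-like genes, expressed in oocytes and early embryos, came from a group of 26 members around E330014E10Rik, which ran from -0.39 to 0.00 with a median of -0.34. One of them (probe set 10522573) read 10.87, 10.94 and 10.95 in wild-type, 10.88, 10.99 and 11.02 in Dgcr8 knockout and 10.65, 10.44 and 10.52 in Dicer knockout, a difference of -0.38 ± 0.06 (limma, adjusted p = 0.0062). Tdpoz7/Tdpoz9/Tdpoz5/Tdpoz1, genes for TRAF and POZ domain proteins of eggs, read 6.82, 6.77 and 7.09, then 7.04, 6.91 and 6.92, then 6.38, 6.37 and 6.47. All 4 members fell, this one by 0.49 ± 0.10 (adjusted p = 0.0177, and 0.0573 without Dicer knockout replicate 1). The remaining clusters (Obox, Oog, Zscan4, Spin2, Nlrp4 and Fbxw copies) gave no lower call, and the median over the 71 members was 0.02. Gm2036/1810037I17Rik, outside these clusters, fell by 0.57 ± 0.06 (adjusted p = 0.000404), from 12.01, 11.95 and 12.04 to 11.35, 11.51 and 11.43, with Dgcr8 knockout at 12.06, 11.95 and 11.87.

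Zinc finger proteins, DNA-binding repressors in large clusters, gave 5 falls and 1 rise among 35 members (background 4.19% lower and 4.89% higher), in 2 and 1 of 16 gene groups. Zfp114 and its neighbours fell by 0.40 ± 0.06 (limma, adjusted p = 0.00406), from 11.11, 11.03 and 11.18 to 10.62, 10.77 and 10.74, with Dgcr8 knockout at 11.11, 11.08 and 11.21. This call held without any 1 array. The others did not: 1 fall was left without wild-type replicate 1 or 2, 2 without wild-type replicate 3 and 3 without Dicer knockout replicate 1. Rtl8b/Rtl8a, made from a retrotransposon gag gene, fell by 0.54 (adjusted p = 0.00956). The 4 probe sets of Rnu3b4/Rnu3b3/Rnu3b2/Rnu3b1, which code for U3 small nucleolar RNA, had the same 9 values and count as 1 measurement. They read 7.68, 6.88 and 7.49 in wild-type, 6.85, 6.80 and 6.87 in Dgcr8 knockout and 6.16, 6.59 and 6.59 in Dicer knockout. The difference of -0.91 ± 0.20 had an adjusted p of 0.0251, which was 0.0792 to 0.0953 without wild-type replicate 1, wild-type replicate 3 or Dicer knockout replicate 1.

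Cytosolic ribosomal proteins were the largest family, with 237 members in 35 gene groups. Of these 43 rose and none fell (18.1%, background 4.89% higher and 4.19% lower), in 8 of 35 groups, with a median of 0.23. The arrays of Dicer knockout did not move alike. Their medians over the family, as deviations from the wild-type mean, were 0.44, 0.28 and 0.02 in replicates 1 to 3, while wild-type arrays lay at 0.10, 0.06 and -0.16 and Dgcr8 knockout arrays at -0.12, -0.10 and -0.01. Accordingly 85 members rose without Dicer knockout replicate 3, 23 without replicate 1 and 27 without replicate 2. The groups differed in size of change. Changes ran from -0.01 to 0.12 over the 35 Rpl29 members, from 0.09 to 0.33 over 32 of Rpl21, from 0.18 to 0.25 over 17 of Rpl7a and from 0.04 to 0.16 over 17 of Rpl17, and none of these was called. Rpl35a/Ino80 missed it with a larger value: 9.62, 8.86 and 8.47 in wild-type, 8.51, 8.98 and 8.74 in Dgcr8 knockout, 10.98, 10.86 and 9.36 in Dicer knockout. The difference was 1.42 ± 0.43 (limma, adjusted p = 0.0863, and 0.00857 without Dicer knockout replicate 3, whose value lay among the wild-type ones). The Rpl15 group, 8 of 8 called at 0.69 to 0.79, had no call without Dicer knockout replicate 1 or 2 or any 1 Dgcr8 knockout array.

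Histones, packed into clusters of near-identical copies, had array medians of 0.11, 0.21 and -0.02 in Dicer knockout and -0.09 to 0.08 in the other 6 arrays, and gave 1 rise among 47 members (H2bc6/H1f4, 0.78 ± 0.12, limma, adjusted p = 0.00352). None of 27 vomeronasal receptor, 26 interferon response, 17 hnRNP and splicing, 15 keratin and 8 heat shock and cyclophilin members was called. The background for the counts in this paragraph, all in Dicer knockout minus wild-type, was 9.09% called (4.89% higher, 4.19% lower). At that share few calls would fall in lists this short. In 2 small families Dicer knockout replicate 3 lay apart from replicates 1 and 2. The 7 respiratory chain and ATP synthase members had array medians of 0.65, 0.60 and -0.13 against the wild-type mean, with 1 rise, or 6 without Dicer knockout replicate 3. The 4 members for mitochondrial carriers and ribosomes had 1.31, 0.57 and -0.10, with no call. The 7 defensin members, for antimicrobial peptides, were even at 0.20, 0.26 and 0.20, also with no call.

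Members that name a microRNA gene hold at least 1 further entry in the gene field. Whether that entry is the host gene was not checked, and the probes need not read the mature microRNA. There were 22 such members, for 18 microRNA genes. In Dgcr8 knockout none was called (limma, background 0.0147%), with differences of -0.21 to 0.58 and a median of -0.01. In Dicer knockout minus wild-type 7 rose and none fell, 4 at Ftl1/Mir692 and 3 at Mir682/Rpl37a, against a background of 4.89% higher and 4.19% lower, and the median over the 22 was 0.06. The 7 lie in 2 gene groups. The mature sequences at these genes and at Mir22 are given 5′ to 3′ (RefSeq, GRCm38.p6), with capitals for the seed, bases 2 to 8. No seed is shared between them.
miR-692: aUCUCUUUgagcgccucacuc
miR-682: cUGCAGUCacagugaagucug
miR-22-5p: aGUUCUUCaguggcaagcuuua
miR-22-3p: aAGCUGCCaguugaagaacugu
The miR-692 sequence stands at chr4:125504805-125504825 and chr13:74407121-74407141, miR-682 at chr13:75645119-75645139, and the miR-22 arms at chr11:75463734-75463755 and chr11:75463772-75463793, all on the plus strand. The Mir692 members also name Ftl1, the light chain of ferritin, which stores iron. The first read 8.75, 8.59 and 8.93 in wild-type, 8.85, 8.75 and 8.60 in Dgcr8 knockout and 9.93, 9.66 and 10.19 in Dicer knockout, and rose by 1.17 ± 0.14 without overlap (adjusted p = 0.00121). Mir682/Rpl37a read 9.19, 8.98 and 8.56, then 8.70, 8.76 and 8.73, then 10.14, 9.77 and 9.34, a rise of 0.84 ± 0.21 (adjusted p = 0.0378). The small RNA kind kept 4 of its 7 calls without wild-type replicate 2 or 3, any 1 Dgcr8 knockout array or Dicer knockout replicate 1 or 2.

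Mir22hg/Mir22 carried the largest difference of a microRNA member in Dgcr8 knockout. It read 6.26, 6.54 and 6.72 in wild-type, 7.42, 6.72 and 7.12 in Dgcr8 knockout and 6.48, 6.10 and 6.03 in Dicer knockout. The highest wild-type and the lowest Dgcr8 knockout values were equal at this precision, and the difference of 0.58 did not pass (limma, adjusted p = 1). Dicer knockout lay below Dgcr8 knockout by 0.89 ± 0.20 (adjusted p = 0.0242). That call was lost without replicate 1 (0.0791) or 3 (0.0729) of Dgcr8 knockout, and without replicate 2 (0.0698) or 3 (0.0716) of Dicer knockout.

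Dicer knockout minus Dgcr8 knockout uses the same Dicer knockout arrays as the comparison with wild-type, so the 2 are not independent. There 269 of 1255 members were called, 212 higher and 57 lower (21.4%, background 10.8%). The higher ones were 16.9% (background 5.57%) and the lower ones 4.54% (background 5.18%). An adjusted p under 0.01 was reached by 148 (11.8%, background 4.9%) and a 2-fold difference as well as 0.05 by 86 (6.85%, background 2.66%), and the groups did not overlap in 431 (34.3%, background 24.6%). By gene group 65 of 471 were called, 49 higher and 16 lower (13.8%, against 11.1% of genes). By direction, 10.4% of groups were higher against 4.6% of genes, and 3.4% were lower against 6.52%. Without Dgcr8 knockout replicate 1 the number was 39 (31 higher, 8 lower) and without Dicer knockout replicate 1 it was 40 (31 higher, 9 lower), and 8 were lower without Dgcr8 knockout replicate 3. Pseudogene members rose in 124 and fell in 14 cases, tandem members in 46 and 38, distant ones in 34 and 1. The distant rises were 11, 15 and 17 without Dgcr8 knockout replicates 1, 2 and 3, 12, 15 and 54 without Dicer knockout replicates 1, 2 and 3, and 21 and 18 without wild-type replicates 2 and 3. The tandem falls were 61 without Dicer knockout replicate 2, and the pseudogene falls were 9 and 8 without Dgcr8 knockout replicates 2 and 3. Ribosomal protein members rose in 64 cases, with none lower, and in 28 and 32 without Dgcr8 knockout replicates 1 and 2, and 29, 34 and 104 without Dicer knockout replicates 1, 2 and 3. Some members passed against Dgcr8 knockout and not against wild-type. Gm5424/Ass1, a pseudogene and argininosuccinate synthase, read 7.33, 7.19 and 7.41 in wild-type, 7.67, 7.53 and 7.48 in Dgcr8 knockout and 6.98, 7.06 and 6.92 in Dicer knockout. Dicer knockout was lowest without overlap, by -0.58 ± 0.09 against Dgcr8 knockout (limma, adjusted p = 0.0053) and -0.33 ± 0.09 against wild-type (adjusted p = 0.0705). DXBay18/Gm14685/Gm5936 gave -0.69 against Dgcr8 knockout (adjusted p = 0.00996) and -0.30 against wild-type (adjusted p = 0.214). Rpl39, at 9.31, 7.71 and 6.90 in wild-type, 6.47, 7.27 and 7.47 in Dgcr8 knockout and 10.82, 10.10 and 9.06 in Dicer knockout, gave 2.93 (adjusted p = 0.0193) and 2.02 (adjusted p = 0.0906). Its call against Dgcr8 knockout was lost (0.0521 to 0.0747) without replicate 1 or 2 of either knockout. The wild-type arrays of Rpl39 spread widely, and replicate 1 overlapped Dicer knockout.

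A probe set that names 1 gene of a member was set beside it where there was one. The 341 such pairs came from 235 gene groups, each gene taken at the highest member and the highest single-gene probe set, and what is compared is the change, not the signal. In Dicer knockout minus wild-type both were called in 23 pairs, with the same sign in all 23, the member alone in 26, the single-gene probe set alone in 16 and neither in 276. Across these pairs, which share arrays, the changes had a Pearson r of 0.48 and a Spearman rho of 0.48 (0.53 for r without Uchl4/Uchl3), against 0.70 and 0.65 across 883 pairs of single-gene probe sets for 1 gene. The difference within a pair passed in 23 of 341 (6.74%), 15 with the member more positive and 8 less, and in 41 of the 883 (4.64%; limma, adjusted p under 0.05 over all 1224 pairs).

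Uchl3 gave the widest gap. Its own probe set read 10.12, 9.92 and 10.13 in wild-type, 10.10, 10.09 and 9.98 in Dgcr8 knockout and 10.15, 10.21 and 10.34 in Dicer knockout, a change of 0.18 against 4.25 at the member. The gap was 4.07 ± 0.18 (limma, adjusted p = 4.17e-05 over the pairs). Olfr1200 changed by 0.30 at its own probe set against 3.91 (gap 3.61 ± 0.10, adjusted p = 3.96e-06). Actb changed by 0.07 against 0.73 (gap 0.66 ± 0.08, adjusted p = 0.006), Eif1a by 0.05 against 1.25 (adjusted p = 0.0074), Set by -0.15 against 0.90 (adjusted p = 0.0263) and Hmgb1 by -0.10 against 0.36 (gap 0.46 ± 0.10, adjusted p = 0.0462). In these genes the member, which also names copies, rose and the probe set that names the gene alone did not pass the test.

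Elsewhere both kinds of probe set gave like values. The changes were 1.79 and 1.80 for Ndufs5, 0.71 and 0.70 for Rps2, 1.17 and 1.19 for Ftl1, 1.62 and 1.48 for Ube2l3, 1.61 and 1.46 for Gm8624 and 1.00 and 1.04 for Gstp1. In a few genes the member changed less. Khdc1a, an oocyte gene, changed by 0.10 at the member and 0.70 at its own probe set (gap -0.60 ± 0.05, limma, adjusted p = 0.000557), and Rps19-ps3 by 0.74 and 1.72. Tuba1a changed by 0.97 and 2.07, a gap of -1.10 that did not pass (adjusted p = 0.122). Rpl35a/Ino80 rose by 1.42 at the member, uncalled, while the Ino80 probe set, for a chromatin remodeller, fell by 0.24 (adjusted p = 0.0427).

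Members at the ends of the signal range are given for reference. The 10 members with the highest wild-type signal included Cdk8/Rn28s1 (change 0.05), which names a ribosomal RNA, Malat1/Ramp2 (0.04), 3 probe sets of Obox5/Obox2/Obox3/Obox7/Obox1, homeobox genes of oocytes, and Gm12657/H3f3a, a histone variant. Among the 10, Gm2036/1810037I17Rik was called in Dicer knockout minus wild-type and the other 9 were not, a share near the background of 9.09%. Just inside the floor lay C1rb/C1ra, an 11-gene vomeronasal probe set and Olfr100/Olfr102, and just outside it Tcp10c/Tcp10b/Tcp10a, Gm29825/4921528I07Rik and the Bcl2a1 copies. The value that decided membership, number 3 of 9 in descending order, was 3.98 to 4.01 in these 6, so it turned on hundredths of a log2 unit.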

How the data were processed

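Total RNA of metaphase II oocytes was isolated with a PicoPure kit, labelled with biotin and hybridised, 1 array per sample, per the labels' protocols. The deposited values are on the log2 scale and, per the submitters' processing notes, were made with GCRMA, which corrects background by probe sequence, normalizes between arrays and summarises probes; its version, and the build behind the platform annotation's gene names, are not stated in the sources used here. No depth exists for arrays: 3 per genotype limit the precision. Array medians were 5.48 to 5.58, and no 2 arrays were alike enough to be 1 library (highest correlation 0.9924).

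Probe sets at or above 4 in at least 3 of 9 arrays were tested with lmFit and a robust, trended eBayes of limma 3.58.1 (R 4.3.3), all 9 arrays in 1 fit with 3 comparisons, two-sided, Benjamini-Hochberg adjusted over 27257 probe sets, and checked on simulated data. Gene entries were matched to RefSeq (4939 of 4972). Gaps between 2 probe sets of a gene were fitted the same way, without trend, on their difference per array. Where nothing says that replicates came from separate pools of females, p-values measure the spread between these samples alone.

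The members, family lists and tests were chosen with earlier results of these data known, so no list is independent evidence. Named members are, by a written rule, the 12 largest called changes each way without overlap between Dicer knockout and wild-type, up to 3 called by adjusted p in each family of 5 or more members, the 5 largest each way against Dgcr8 knockout, the 10 with the highest wild-type signal and the 3 on each side of the floor; the highest probe set of each gene group with a call and 15 more members were added after the values were seen. Alternatives were the floor, the scaling, the variance model, the samples in the fit, the thresholds, a replicate block and each array left out.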

Additional observations from a re-analysis of the deposited data

How the results depend on the processing

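In Dgcr8 knockout minus wild-type the count of members called stayed 0 under each alternative run, by member and by gene group. In Dicer knockout minus wild-type, 126 members and 25 gene groups passed an adjusted p under 0.01, and 60 members (57 higher, 3 lower; 4.78%, background 2.4%) and 14 gene groups passed 0.05 with at least a 2-fold difference. In Dicer knockout minus Dgcr8 knockout these were 148 members and 29 groups, and 86 members and 22 groups. Leaving out each array in turn gave 158 to 261 members and 32 to 62 groups against wild-type, and 185 to 300 members and 39 to 71 groups against Dgcr8 knockout. The other alternatives (floor, scaling, variance model, samples in the fit, array weights, named probe sets only) left these counts within 1.5 times, at 166 to 246 members against wild-type. The share called moved more with the floor, because the number of members changes with it. It was 246 of 884 with the floor at 6 and 203 of 1621 without a floor, beside 226 of 1255. Of 94 called members named, none reversed its sign and 59 stayed called under every alternative for Dicer knockout minus wild-type. The call was lost in 23 with only the 2 groups compared in the fit, and in 30 without Dicer knockout replicate 1. The replicate numbers of the labels did not pair the samples: deviations of same-numbered samples correlated at -0.228 to 0.114. With the number as a replicate block, 202 members were called against wild-type, 253 against Dgcr8 knockout and 0 in Dgcr8 knockout minus wild-type.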

Other observations

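Members from clusters on the sex chromosomes and from immune loci, not described above, gave small counts in Dicer knockout minus wild-type. Of 26 members in X and Y clusters, 7 rose and none fell (background 4.89% and 4.19%), but none was called without wild-type replicate 1 or 3 or Dicer knockout replicate 1 or 3. The X-linked Gm4297 probe sets, several with the same 9 values, read 6.97, 7.16 and 6.64 in wild-type, 6.55, 6.52 and 6.85 in Dgcr8 knockout and 7.90, 7.45 and 7.58 in Dicer knockout (0.72 ± 0.17; limma, adjusted p = 0.03). The Dicer knockout arrays lay above the other 6.

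Of 8 members for major histocompatibility genes, which present peptides to T cells, 3 rose and none fell, in 2 of 7 gene groups. The background was 4.89% higher and 4.19% lower. H2-K1/LOC547349/H2-D1 read 8, 8.05 and 7.79 in wild-type, 7.55, 8 and 7.99 in Dgcr8 knockout and 8.57, 8.71 and 8.33 in Dicer knockout (0.59 ± 0.15; limma, adjusted p = 0.0439). This call was lost without any 1 of 7 arrays (0.0569 to 0.155) and with no floor (0.0619), median centring (0.065), array weights (0.0539) or a replicate block (0.0573). Of the 3 calls 1 was left without wild-type replicate 2 or 3 or Dicer knockout replicate 1. Of 40 antigen receptor members 2 rose and 4 fell, against a background of 4.89% and 4.19%. The falls were 1 without wild-type replicate 1 or 3, and 2 without wild-type replicate 2, Dicer knockout replicate 1 or any 1 Dgcr8 knockout array. The 2 that rose, Trav16d-dv11/Trav7d-6, had the same 9 values and are 1 measurement (6.75, 7.31 and 7.10, then 7.33, 7.44 and 7.45, then 8.44, 8.84 and 8.27; 1.46 ± 0.17, adjusted p = 0.00109). Array medians of immune and blood markers were 4.36 to 4.55 in wild-type and Dgcr8 knockout and 4.4 to 4.84 in Dicer knockout, and 1 of the 6 past the floor, the macrophage marker Cd68, was higher in Dicer knockout (0.96 ± 0.20; limma, adjusted p = 0.0204). Their part in these values was not tested.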
